A study of Homo sapiens with 20 samples.

Results

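The genes described here encode the enzymes of glycolysis, the transporters that feed it and the kinases and dehydrogenase subunits that decide what becomes of its pyruvate. The list holds 37 genes and was compared across WM793, a human cell line from a vertical growth phase melanoma, and its 4 NME1-overexpressing derivatives. NME1 phosphorylates nucleoside diphosphates and restrains metastasis in several tumour models. A gene was measured by each row of the expression table whose platform gene symbols include it, and by the row with the highest mean where it had several. Of the 37 genes, 35 had a row, among 18384 features in all. SLC16A1 and SLC16A3, the lactate exporters of the list, were not analysed here. A row of its own measured 32 of the 35 genes. The other 3 shared theirs: SLC2A3 with SLC2A14, PGAM1 with PGAM4 and PDK2 with SAMD14, so those values cannot be assigned to 1 gene.

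Total RNA of cells grown for 3 days in culture was hybridised to Affymetrix Human Exon 1.0 ST arrays, and the values are log2 expression values. Each line has 4 arrays, 20 in all: the parent line (Parent), the line NME1-wild-type with the unmutated construct, and 3 lines named NME1-E5A, NME1-P96S and NME1-K12Q for the amino acid change in theirs. All 5 lines share the WM793 background, and a construct is present in 1 line only. The study describes the 4 arrays as technical replicates, so every p-value measures only the spread between these arrays and says nothing about a second line with the same construct. The labels name no vector control and no promoter for the constructs. The row that holds NME1, shared with the NME1-NME2 readthrough, stood above Parent by 0.28 in NME1-wild-type, 0.26 in NME1-E5A, 0.23 in NME1-K12Q and 0.25 in NME1-P96S on the log2 scale and passed in no line (limma, adjusted p from 0.85 to 1.0). Of the melanocyte lineage markers, SOX10 (mean level 9.38, above 94.7% of features) and S100B (8.61, above 88.5%) were high, while MITF (5.69, 37.9%), PMEL (4.71, 21.0%), TYRP1 (4.17, 12.9%) and MLANA (3.69, 6.6%) lay in the lower part of the table. Of 25 measured markers of melanocytes, leukocytes, fibroblasts, endothelial cells and epithelium, 0 changed in any of the 10 comparisons of lines (limma). Of all features, 0.00544% to 0.277% changed in a comparison, so 0 of 25 is near the background. In NME1-E5A against Parent 2 of the markers had an unadjusted limma p under 0.05, beside 2.98% of all features.

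Glycolysis splits glucose into pyruvate in the cytosol. Glucose enters through SLC2A transporters, is trapped by hexokinase, is committed by phosphofructokinase, whose activity the PFKFB enzymes set, and is cut by aldolase. Lower down, the pathway yields ATP at phosphoglycerate kinase and pyruvate kinase, with enolase between them. Pyruvate is then reduced to lactate by lactate dehydrogenase or oxidised in mitochondria by the pyruvate dehydrogenase complex, which the PDK kinases switch off. Many steps have several isozymes encoded by separate genes, and cancer cells, melanoma cells among them, are known for high glycolytic flux. Many of these genes are textbook targets of the hypoxia-inducible factor HIF, which binds a short core sequence in DNA.

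The promoters of the 4 genes that rose in NME1-E5A against Parent are shown because they carry or lack that core. Each line gives the 250 bases before a RefSeq transcription start (GRCh38.p14) in the direction of the gene. Capitals mark the letters ACGTG or GCGTG on either strand. CACGTG, which holds the core on both strands, counts as 1 match.
ALDOC (chr17:28576896-28577145, - strand): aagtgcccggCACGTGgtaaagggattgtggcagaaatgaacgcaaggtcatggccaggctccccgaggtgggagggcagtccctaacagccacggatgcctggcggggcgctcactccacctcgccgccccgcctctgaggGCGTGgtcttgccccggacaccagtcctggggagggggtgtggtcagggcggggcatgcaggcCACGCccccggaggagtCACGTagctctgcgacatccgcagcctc
ENO2 (chr12:6914330-6914579, + strand): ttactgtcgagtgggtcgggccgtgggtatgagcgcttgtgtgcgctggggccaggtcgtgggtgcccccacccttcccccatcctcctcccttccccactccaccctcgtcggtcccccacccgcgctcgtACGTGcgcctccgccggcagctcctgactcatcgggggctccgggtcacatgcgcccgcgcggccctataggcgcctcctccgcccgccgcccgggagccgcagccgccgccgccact
PDK1, first start (chr2:172555123-172555372, + strand): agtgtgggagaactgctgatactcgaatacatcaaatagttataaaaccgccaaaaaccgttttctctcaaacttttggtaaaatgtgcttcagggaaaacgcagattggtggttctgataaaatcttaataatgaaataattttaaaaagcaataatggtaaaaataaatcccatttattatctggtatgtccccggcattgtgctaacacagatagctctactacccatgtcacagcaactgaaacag
PDK1, second start (chr2:172555840-172556089, + strand): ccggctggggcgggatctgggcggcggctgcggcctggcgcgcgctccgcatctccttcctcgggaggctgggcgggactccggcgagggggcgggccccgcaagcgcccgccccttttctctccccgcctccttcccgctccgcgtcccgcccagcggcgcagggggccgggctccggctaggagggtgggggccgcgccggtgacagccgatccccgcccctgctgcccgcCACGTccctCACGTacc
PFKFB4 (chr3:48556804-48557053, - strand): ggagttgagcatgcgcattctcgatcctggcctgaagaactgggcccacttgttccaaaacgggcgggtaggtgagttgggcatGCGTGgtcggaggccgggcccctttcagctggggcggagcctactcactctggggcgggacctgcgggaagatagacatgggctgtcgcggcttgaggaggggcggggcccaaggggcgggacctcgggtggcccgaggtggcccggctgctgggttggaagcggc
ALDOC had 4 matches, the PDK1 windows 0 and 2, and ENO2 and PFKFB4 1 each. In the second PDK1 window the matches are centred 15 and 6 bases before the start. Among isozymes that did not pass in that comparison, ENO1 had 2 matches, the ENO3 windows 2 and 0, and the 3 ALDOA windows 1 each. The PFKFB3 windows had 1 each and the PFKFB1 windows 0. The PDK2 windows had 0, 2 and 0, PDK3 had 2 and PDK4 had 0. Outside these families, PDHB had 5 matches and the HK2 windows 3 and 4, and neither gene passed. At least 1 match was present in 43.2% of the 35116 promoter windows of this length in RefSeq and at least 4 in 2.08%. Of the 35 measured genes, 33 had a window and 26 of these had a match in at least 1 of their windows. The 43.2% is a share of windows and no background for this count per gene, which was not made over all genes. By window, 51.6% of the 62 windows of these genes had a match, and their median GC content was 65.4% against 58.0% over all windows. A match is a stretch of letters only, and binding was not measured.

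NME1-E5A was the line in which these genes had their highest median. Against Parent, 4 of 35 genes rose, 0 fell and 31 did not pass an adjusted p under 0.05 (limma, Benjamini-Hochberg over all 18384 features) with at least a 1.5-fold difference. ALDOC, ENO2, PDK1 and PFKFB4 were the 4, with log2 changes of 1.41, 1.30, 1.32 and 0.85. At an unadjusted p under 0.05 the difference was positive for 22 of the 35 genes and negative for 0, beside 2.98% of all features in either direction. By the rule of adjusted p and 1.5-fold, which 4 genes passed, 0.141% of all features were higher and 0.218% changed in either direction. The median difference of the 35 genes was 0.31, and that of all features was -0.04. In 16 of the 35 genes all 4 NME1-E5A arrays lay above all 4 Parent arrays, and in 0 they all lay below, while 1.07% of all features were entirely above and 0.914% entirely below. These 16 genes reach from glucose uptake to pyruvate handling: SLC2A1, the row of SLC2A3, PGM1, GPI, PFKP, PFKFB3, PFKFB4, ALDOA, ALDOC, TPI1, GAPDH, PGK1, the row of PGAM1, ENO2, LDHA and PDK1. The count was 11 with quantile normalisation, where 1.2% of features were entirely above, and 17 without the 3 arrays of narrowest spread, where 2.61% were. Fitting only the 8 arrays of these lines, or testing against 1.5-fold with limma's treat, left 2 changed genes, ALDOC and ENO2. In bulk RNA such as this, more RNA in every cell and a larger share of cells with high levels cannot be told apart.

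**Figure D1:**
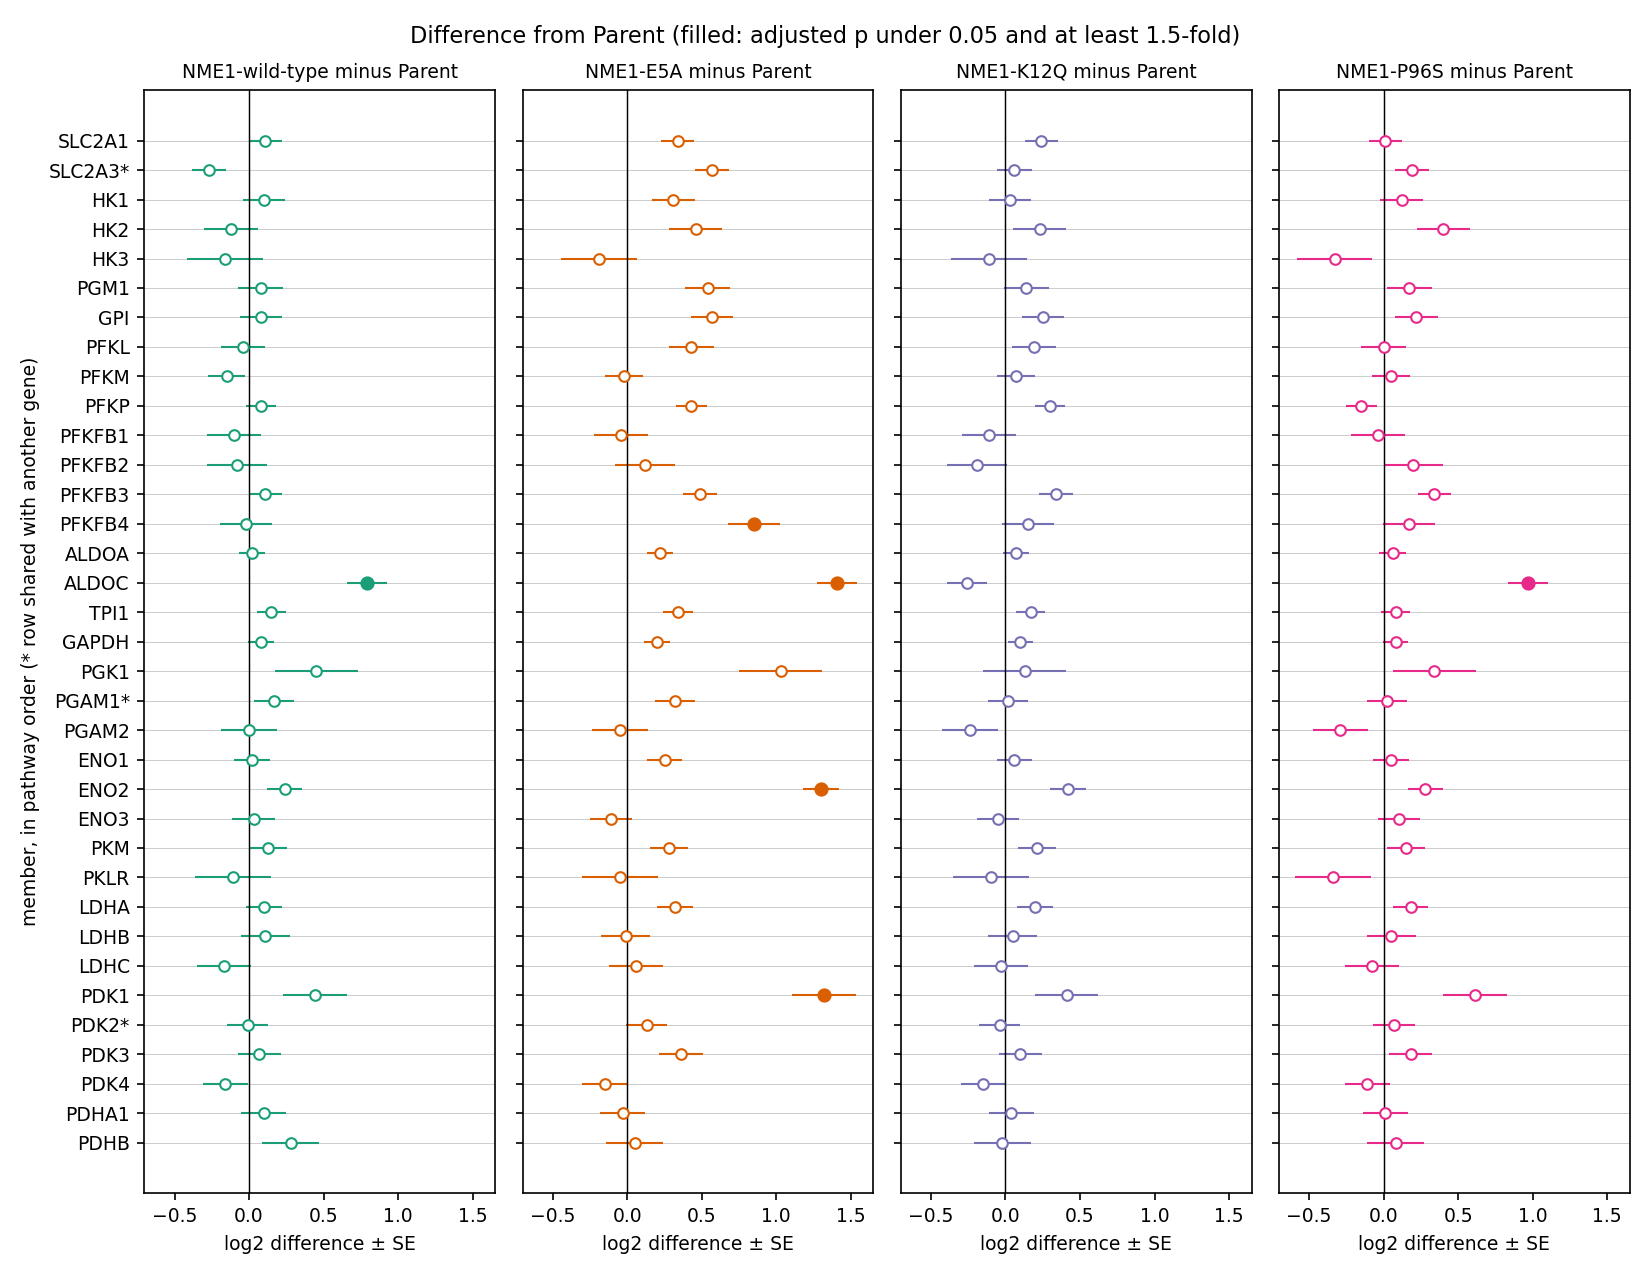
Log2 difference from Parent (x axis, with the standard error of the limma fit) of each of the 35 measured genes, in pathway order from glucose uptake at the top to pyruvate dehydrogenase at the bottom, for the 4 NME1 lines. Filled points passed an adjusted p under 0.05 and 1.5-fold, and the only gene filled in more than 1 panel is ALDOC, at 0.79 in NME1-wild-type, 1.41 in NME1-E5A and 0.97 in NME1-P96S.

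The other lines differed from Parent in ALDOC or in nothing that passed. In NME1-wild-type and in NME1-P96S 1 of 35 genes rose and 0 fell, against 0.0326% and 0.049% of all features that were higher and 0.0326% and 0.103% that changed by the same rule. The NME1-wild-type count was 0 when any 1 of 12 single arrays was left out. In NME1-K12Q 0 of 35 passed, against 0.00544% of features (limma, with 4 of the genes and 1.48% of features at an unadjusted p under 0.05 and 0 genes by limma's treat against 1.5-fold). The medians of the 35 genes were 0.08, 0.07 and 0.08 in NME1-wild-type, NME1-K12Q and NME1-P96S, beside medians over all features of -0.03, -0.05 and -0.06. The NME1-wild-type median was within 0.01 of 0 with quantile normalisation and 0.021 without NME1-wild-type replicate 4. With array weights the medians of NME1-K12Q and NME1-P96S were 0.13 and 0.156. All 4 comparisons use the same Parent arrays. Genes with all 4 arrays above Parent numbered 3 in NME1-wild-type (ALDOC, TPI1 and GAPDH), 5 in NME1-K12Q (PFKP, PFKFB3, TPI1, GAPDH and ENO2) and 3 in NME1-P96S (ALDOC, PFKFB3 and the row of SLC2A3), beside 0.354%, 0.587% and 0.566% of all features. In NME1-P96S the count was 8 without the 3 narrowest arrays, where 4.42% of features were entirely above, 7 without NME1-P96S replicate 3 alone (3.57% of features) and 5 without Parent replicate 4 (1.02%). In NME1-K12Q it was 9 without Parent replicate 4 (1.17% of features) and 10 without NME1-K12Q replicate 1 (1.83%). With quantile normalisation the counts were 1 in NME1-wild-type (0.479%) and 2 in NME1-K12Q (0.653%), and with median-centred arrays they were 3 in NME1-K12Q (0.702%) and 1 in NME1-P96S (0.555%).

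Glucose uptake involved SLC2A1, the transporter of most cultured cells, and the row of SLC2A3, a high-affinity transporter of neurons, and SLC2A14. The shared row read 7.31, 7.37, 7.17 and 7.36 on the Parent arrays and 6.97, 6.74, 7.13 and 7.27 in NME1-wild-type. It read 7.81, 7.78, 7.91 and 8.0 in NME1-E5A, 7.30, 7.26, 7.50 and 7.38 in NME1-K12Q, and 7.42, 7.58, 7.39 and 7.60 in NME1-P96S. The NME1-E5A arrays were the 4 highest of the 20, and the NME1-wild-type arrays reached the lowest values. NME1-E5A rose above NME1-wild-type by 0.85 (SE 0.116, limma adjusted p = 0.00135). Against Parent the difference of 0.57 had an adjusted p of 0.0372 (limma) but fell just short of 1.5-fold, and it was 0.60 and passed without the 3 narrowest arrays. The second row shared by the same genes differed by 0.43 in NME1-E5A against Parent. SLC2A1 read 10.66, 10.53, 10.87 and 10.91 in Parent and 10.96, 11.18, 11.08 and 11.09 in NME1-E5A. Its groups did not overlap, yet the difference of 0.34 did not pass (SE 0.111, limma adjusted p = 0.704).

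The hexokinases, which phosphorylate glucose, did not pass in any comparison. HK2, the isozyme that many tumours induce, had a difference from Parent of -0.12 in NME1-wild-type, 0.46 in NME1-E5A, 0.23 in NME1-K12Q and 0.40 in NME1-P96S. HK1, the housekeeping isozyme, had differences from 0.03 in NME1-K12Q to 0.31 in NME1-E5A. HK3, a myeloid isozyme, had a mean level of 5.28, with Parent arrays from 4.85 to 6.14. PGM1, which links glucose phosphate to glycogen, and GPI, which turns it into fructose phosphate, had larger differences in NME1-E5A, at 0.54 (SE 0.151) and 0.57 (SE 0.142). GPI read 10.87, 10.56, 10.81 and 10.94 in Parent and 11.13, 11.42, 11.40 and 11.51 in NME1-E5A. Both genes had every NME1-E5A array above Parent, and neither passed (limma adjusted p = 0.337 and 0.163).

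Phosphofructokinase, the committing step, has a liver-type subunit PFKL, a muscle-type PFKM and a platelet-type PFKP. PFKP read 9.28, 9.28, 9.18 and 9.22 in Parent, 9.53, 9.72, 9.68 and 9.76 in NME1-E5A, 9.54, 9.53, 9.54 and 9.54 in NME1-K12Q, and 9.12, 9.07, 8.99 and 9.19 in NME1-P96S. NME1-E5A and NME1-K12Q lay wholly above Parent, while NME1-P96S overlapped it from below. NME1-P96S minus NME1-E5A was -0.58 (limma adjusted p = 0.00913), just short of 1.5-fold. Against Parent the differences of 0.43 in NME1-E5A and 0.30 in NME1-K12Q had adjusted p-values of 0.103 and 1.0 (limma). PFKL differed from Parent by 0.43 and PFKM by -0.02 in NME1-E5A. On each array PFKM minus PFKL lay between -0.76 and -0.31 in Parent and between -1.09 and -0.81 in NME1-E5A, a shift of -0.44.

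The PFKFB enzymes make and break the sugar phosphate that activates phosphofructokinase. PFKFB4 read 7.61, 7.65, 7.72 and 8.24 in Parent and 8.60, 8.58, 8.66 and 8.79 in NME1-E5A. It rose by 0.85 against Parent (SE 0.176, 1.81-fold, limma adjusted p = 0.0413) and by 0.88 against NME1-wild-type (limma adjusted p = 0.0401). No NME1-E5A array overlapped another line, and Parent replicate 4, at 8.24, came closest among the Parent arrays. Both calls sat at the threshold: 1 or both ended without any single NME1-E5A array, without replicate 1, 2 or 3 of Parent or of NME1-wild-type, and without replicate 1 or 3 of NME1-K12Q or 1, 2 or 4 of NME1-P96S. The differences then lay between 0.74 and 0.90. Centring the arrays on their medians ended both calls as well. PFKFB3, the isozyme known for its high kinase and low phosphatase activity, differed by 0.49 in NME1-E5A, 0.34 in NME1-K12Q and 0.34 in NME1-P96S, with all arrays above Parent in each line and no call (limma adjusted p = 0.0946, 1.0 and 0.85). PFKFB2, the heart isozyme, differed by 0.12 in NME1-E5A and varied from 6.18 to 7.19 among the Parent arrays. PFKFB1, the liver isozyme, had a mean level of 3.75, which lay above only 7.3% of features.

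Aldolase gave the widest difference between lines among the 35 genes. ALDOC is the isozyme of brain, and ALDOA that of muscle and most other tissues. ALDOC read 6.07, 6.44, 6.07 and 5.96 in Parent, 7.28, 6.81, 6.73 and 6.89 in NME1-wild-type and 7.70, 7.51, 7.42 and 7.56 in NME1-E5A. It read 5.94, 6.04, 5.74 and 5.80 in NME1-K12Q and 7.27, 7.02, 6.98 and 7.15 in NME1-P96S. The line means thus ran from NME1-E5A (7.55 ± 0.116, SD, n = 4) through NME1-P96S (7.11 ± 0.131) and NME1-wild-type (6.93 ± 0.245) to Parent (6.13 ± 0.209) and NME1-K12Q (5.88 ± 0.135). Neighbours in this order that did not pass were NME1-P96S minus NME1-E5A (-0.44, limma adjusted p = 0.382, arrays apart), NME1-P96S minus NME1-wild-type (0.18, overlapping) and NME1-K12Q minus Parent (-0.26, overlapping).

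ALDOC rose against Parent by 1.41 in NME1-E5A (2.67-fold, limma adjusted p = 1.43e-05), by 0.97 in NME1-P96S (1.96-fold, limma adjusted p = 0.00348) and by 0.79 in NME1-wild-type (1.73-fold, limma adjusted p = 0.0292). NME1-K12Q differed in it by -1.05 from NME1-wild-type (limma adjusted p = 0.000915) and by -1.67 from NME1-E5A (3.18-fold, limma adjusted p = 1.63e-06), and NME1-P96S exceeded NME1-K12Q by 1.23 (limma adjusted p = 0.000145). NME1-K12Q was the line that stood apart from the other NME1 lines in this gene. The NME1-wild-type call was lost when only 8 arrays were fitted and when any 1 of 12 single arrays was left out, among them Parent replicate 1, 3 or 4 and NME1-wild-type replicate 1, 2 or 4, at differences from 0.68 to 0.83. The NME1-P96S call was lost with only the 8 arrays (adjusted p = 0.616). ALDOA had differences from Parent of 0.22 in NME1-E5A, 0.07 in NME1-K12Q, 0.06 in NME1-P96S and 0.02 in NME1-wild-type.

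**Figure D2:**
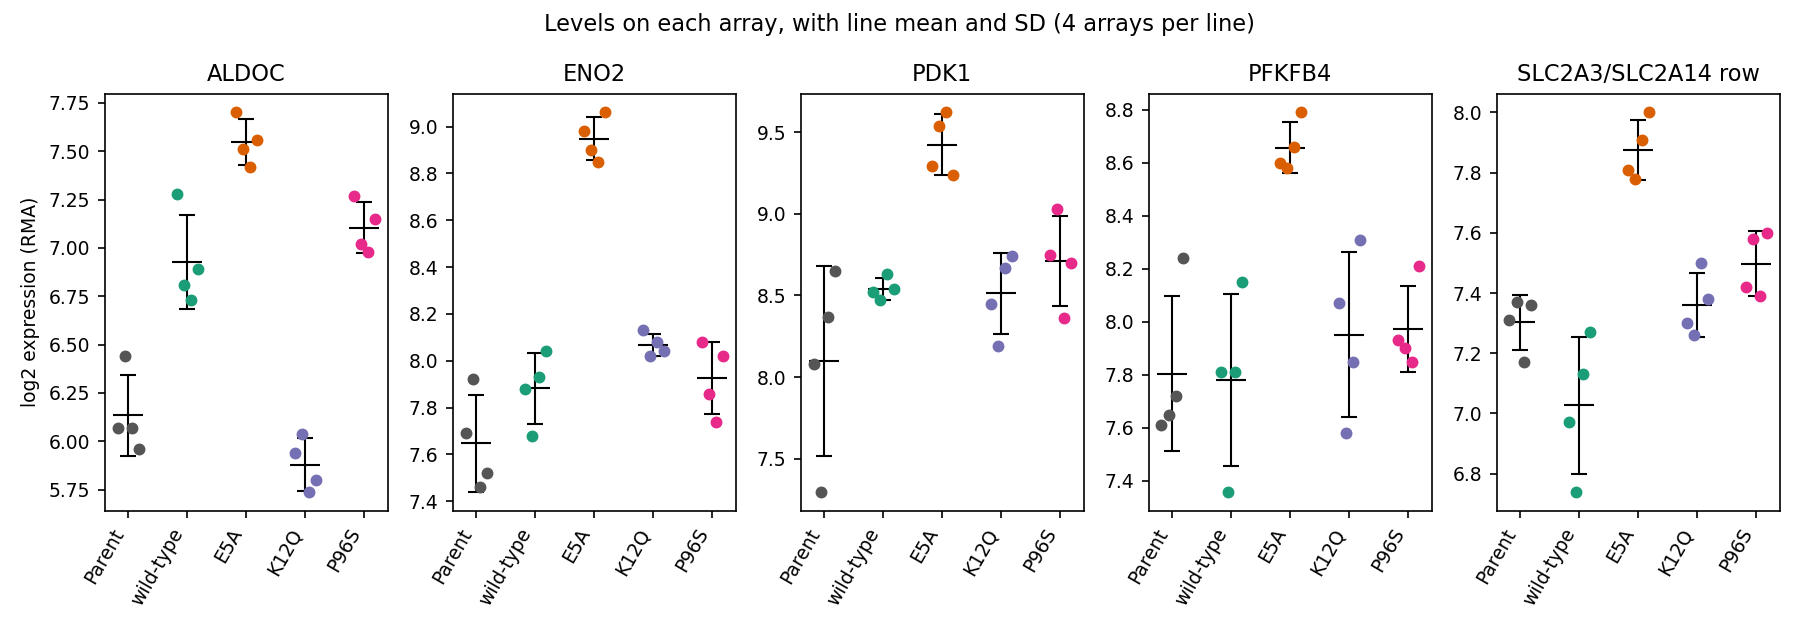
Log2 expression on each of the 20 arrays (y axis) for the 5 rows that passed in at least 1 comparison, with the mean and SD of the 4 arrays of each line. The NME1-E5A arrays are the highest of all in each panel, while ALDOC alone also separates NME1-wild-type and NME1-P96S from Parent and NME1-K12Q.

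None of the middle steps, from triose phosphate isomerase to phosphoglycerate mutase, passed in any comparison. TPI1, which interconverts the pieces of the split sugar, differed by 0.34 in NME1-E5A, and GAPDH, the oxidising step and a common reference gene, by 0.20. GAPDH read 13.09, 13.00, 12.97 and 13.06 in Parent and 13.19, 13.20, 13.27 and 13.25 in NME1-E5A, so even this gene did not overlap, with a limma adjusted p of 1.0. PGK1, the first ATP-yielding enzyme, had a difference of 1.03 in NME1-E5A without passing (SE 0.278, limma adjusted p = 0.267). It read 10.54, 9.12, 10.49 and 10.22 in Parent and 11.35, 11.04, 11.18 and 10.90 in NME1-E5A. Parent replicate 2, the array of narrowest spread, was the lowest of the 20, at 9.12. With 1 array left out at a time, the PGK1 difference in NME1-E5A ran from 0.70 to 1.18. The row of PGAM1, the common phosphoglycerate mutase, differed by 0.32, and PGAM2, the muscle isozyme, by -0.05.

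Among the enolases, the neuronal isozyme ENO2 was the gene that passed. ENO2 read 7.69, 7.92, 7.46 and 7.52 in Parent, 7.88, 7.68, 7.93 and 8.04 in NME1-wild-type, 8.98, 8.90, 8.85 and 9.06 in NME1-E5A, 8.13, 8.02, 8.08 and 8.04 in NME1-K12Q, and 8.08, 7.86, 7.74 and 8.02 in NME1-P96S. Every NME1-E5A array lay above all 16 others. ENO2 rose in NME1-E5A by 1.30 against Parent (2.47-fold, SE 0.118, limma adjusted p = 1.33e-05) and by 1.07 against NME1-wild-type (limma adjusted p = 9e-05). NME1-K12Q and NME1-P96S lay below NME1-E5A, at differences of -0.88 and -1.03 (limma adjusted p = 0.00061 and 0.000225). These calls held when any single array was left out and ended under limma's treat in the 3 comparisons between NME1 lines. In NME1-K12Q all 4 arrays also lay above Parent, by 0.42, with a limma adjusted p of 1.0. ENO1, the ubiquitous isozyme, differed by 0.25 in NME1-E5A and ENO3, the muscle isozyme, by -0.11. The rows that ENO1 shares with EDARADD and TMEM11 had lower means, 6.11 and 6.96 against 13.01. They differed by -0.14 and -0.13 in NME1-E5A against Parent.

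The last steps of the pathway gave small differences. PKM, the pyruvate kinase of tumours and most tissues, had differences of 0.28 in NME1-E5A, 0.21 in NME1-K12Q, 0.15 in NME1-P96S and 0.13 in NME1-wild-type. PKLR, the isozyme of liver and red cells, had a mean level of 5.68 and differed by -0.34 in NME1-P96S without passing. That difference was -0.65 and passed with array weights (limma adjusted p = 0.0158), was -0.04 with array spread as a covariate, and ran from -0.14 (Parent replicate 2 or NME1-P96S replicate 2 left out) to -0.54 (Parent replicate 4) and -0.63 (NME1-P96S replicate 3) when 1 array was left out. LDHA, the lactate dehydrogenase subunit favoured in glycolytic cells, read 12.42, 12.11, 12.35 and 12.48 in Parent and 12.64, 12.64, 12.78 and 12.59 in NME1-E5A, a difference of 0.32 (limma adjusted p = 1.0). LDHB, the subunit of oxidative tissues, differed by -0.01 in the same comparison. LDHC, the testis form, had a mean level of 3.63.

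At the entry of pyruvate into mitochondria, PDK1 was the member that passed. PDK kinases phosphorylate and inactivate pyruvate dehydrogenase. PDK1 read 8.08, 7.30, 8.37 and 8.65 in Parent and 9.29, 9.54, 9.62 and 9.24 in NME1-E5A, a rise of 1.32 (2.50-fold, SE 0.214, limma adjusted p = 0.00586). The groups did not overlap, although the Parent arrays spread from 7.30 to 8.65. With only these 8 arrays fitted, the adjusted p was 0.154. In the other lines PDK1 lay above Parent by 0.44 (NME1-wild-type), 0.41 (NME1-K12Q) and 0.61 (NME1-P96S) without passing (limma adjusted p = 0.997, 1.0 and 0.85). Without Parent replicate 2, the lowest array at 7.30, these differences were 0.17, 0.14 and 0.34. The rise in NME1-E5A was then 1.05 and still passed (limma adjusted p = 0.0061). NME1-E5A minus NME1-wild-type was 0.88, and NME1-K12Q and NME1-P96S minus NME1-E5A were -0.91 and -0.71, with no overlap and no call (limma adjusted p = 0.16, 0.143 and 0.362). The row of PDK2 differed by 0.13 in NME1-E5A, PDK3 by 0.36 and PDK4, the starvation-induced isozyme, by -0.15. Of the enzyme that these kinases act on, the phosphorylated subunit PDHA1 differed by -0.03 and PDHB by 0.05, and neither passed.

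Set against each of the other NME1 lines, NME1-E5A had 1 to 3 genes that were higher and 0 that were lower. Against NME1-wild-type 3 of 35 genes rose (the row of SLC2A3, PFKFB4 and ENO2), beside 0.103% of all features, and 12 had arrays wholly above, beside 1.82%. NME1-K12Q was lower than NME1-E5A in 2 genes (ALDOC and ENO2), beside 0.087% of features, with 11 wholly below, beside 1.85%. NME1-P96S was lower than NME1-E5A in 1 gene (ENO2), beside 0.131% of features, with 13 wholly below, beside 1.7%. These 3 comparisons share the NME1-E5A arrays. The first count was 5 without Parent replicate 2, and the last was 2 without NME1-E5A replicate 1 and without NME1-P96S replicate 1 or 4. Among the lines without NME1-E5A, ALDOC was the gene that passed: lower in NME1-K12Q than in NME1-wild-type, where 0.0326% of features were lower, and higher in NME1-P96S than in NME1-K12Q, where 0.103% were higher. NME1-P96S against NME1-wild-type had 0 of 35 (limma, with 3 of the genes and 3.39% of features at an unadjusted p under 0.05 and 0 genes by limma's treat), beside 0.201% of features.

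To set isozymes against each other within an array, the difference of their log2 values was taken for 15 isozyme or subunit pairs in each NME1 line and compared with Parent, 60 tests in all. With 4 arrays on each side, the exact permutation test used here (two-sided) cannot give a p below 0.0286, and after adjustment over the 60 tests no p was below 0.156. In 11 tests the arrays did not overlap, 6 of them in NME1-E5A. Those 6 were PFKM minus PFKL, ALDOC minus ALDOA, ENO2 minus ENO1, and PDK1 set against the row of PDK2, PDK3 and PDK4. The PDK tests reuse the PDK1 row, so the 6 are not separate shifts. How often pairs of other genes were apart was not counted. ALDOC minus ALDOA shifted by 1.19 in NME1-E5A, 0.92 in NME1-P96S and 0.77 in NME1-wild-type, and by -0.33 in NME1-K12Q, in each line without overlap with Parent (exact permutation p = 0.0286, adjusted p = 0.156 in each). ENO2 minus ENO1 shifted by 1.05 and PDK1 minus the row of PDK2 by 1.19 in NME1-E5A, with the same p-values. Outside NME1-E5A and aldolase, PDK1 minus the row of PDK2 shifted by 0.54 in NME1-P96S and the row of SLC2A3 minus SLC2A1 by -0.39 in NME1-wild-type, again without overlap and with the same p-values. PFKFB4 minus PFKFB3 overlapped, since Parent replicate 4 lay among the NME1-E5A arrays. The aldolase, enolase and PDK pairs hold ALDOC, ENO2 and PDK1, which passed in NME1-E5A against Parent on the same arrays. Their shifts in NME1-E5A describe those rises beside smaller differences of the partner genes and add no separate support. No isozyme test passed.

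**Figure D3:**
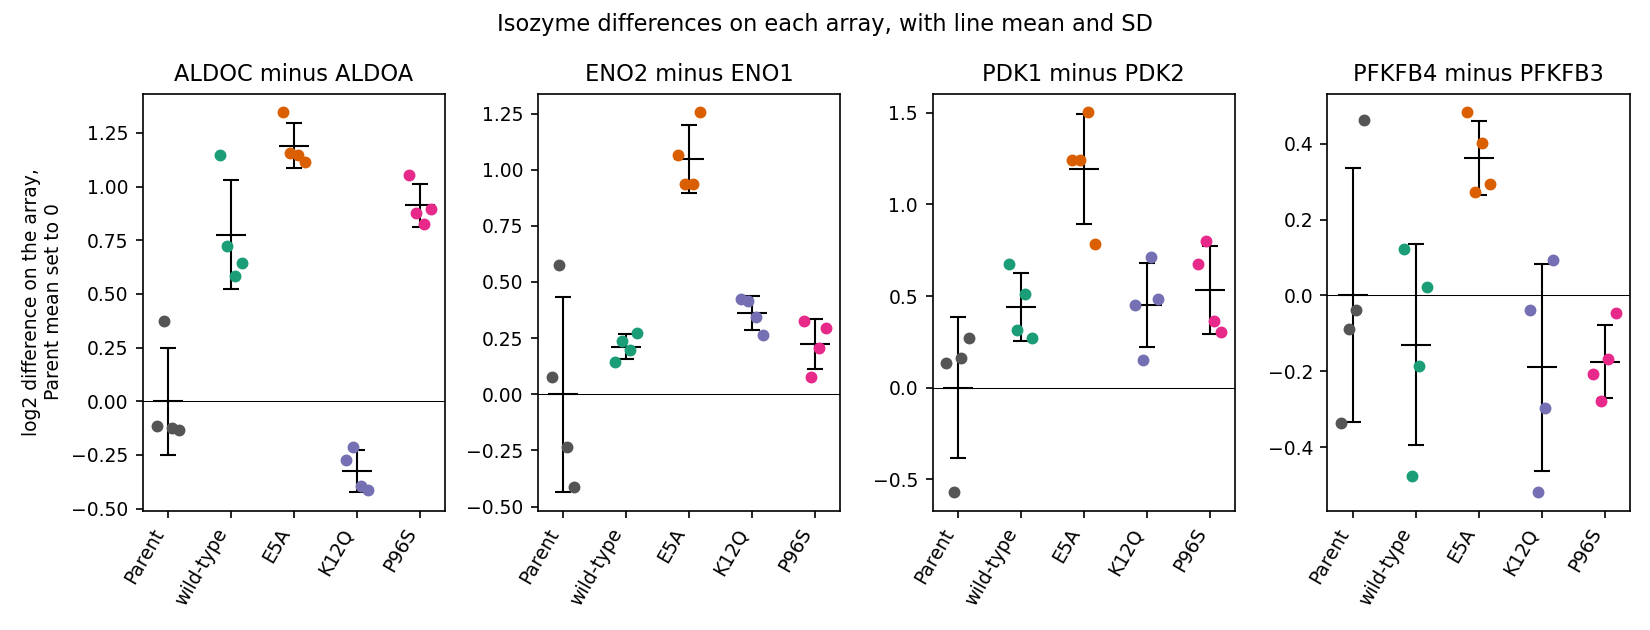
Difference of 2 isozymes' log2 values on each array (y axis, with the Parent mean set to 0), with the mean and SD of each line. ALDOC minus ALDOA separates NME1-E5A, NME1-P96S and NME1-wild-type from Parent upwards and NME1-K12Q downwards, while ENO2 minus ENO1 separates NME1-E5A and PDK1 minus PDK2 separates NME1-E5A and, by less, NME1-P96S.

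The arrays differed in spread, and the members' levels varied with it. The interquartile range over all rows ran from 2.19 on Parent replicate 2 to 3.16 on NME1-P96S replicate 2, and the next narrowest ranges were 2.33 on NME1-P96S replicate 3 and 2.46 on NME1-K12Q replicate 2. The 8 members whose mean lay below the median feature (HK3, PFKFB1, PGAM2, ENO3, PKLR, LDHC, PDK3 and PDK4) stood 0.51 above their own means on Parent replicate 2 and 0.40 above on NME1-P96S replicate 3. The 27 others stood 0.26 and 0.18 below theirs on the same arrays. The 4 NME1-E5A arrays had ranges from 2.71 to 2.80, close to the median of 2.74, and the 27 genes stood 0.16 to 0.25 above their means on each of them. Over those 27 genes the median difference from Parent was 0.34 in NME1-E5A and 24 were positive, while over the other 8 it was -0.05 and 2 were positive. With the interquartile range of each array as a covariate the median of the 35 genes in NME1-E5A was 0.282 and 4 genes passed, and without the 3 narrowest arrays the median was 0.243.

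**Figure D4:**
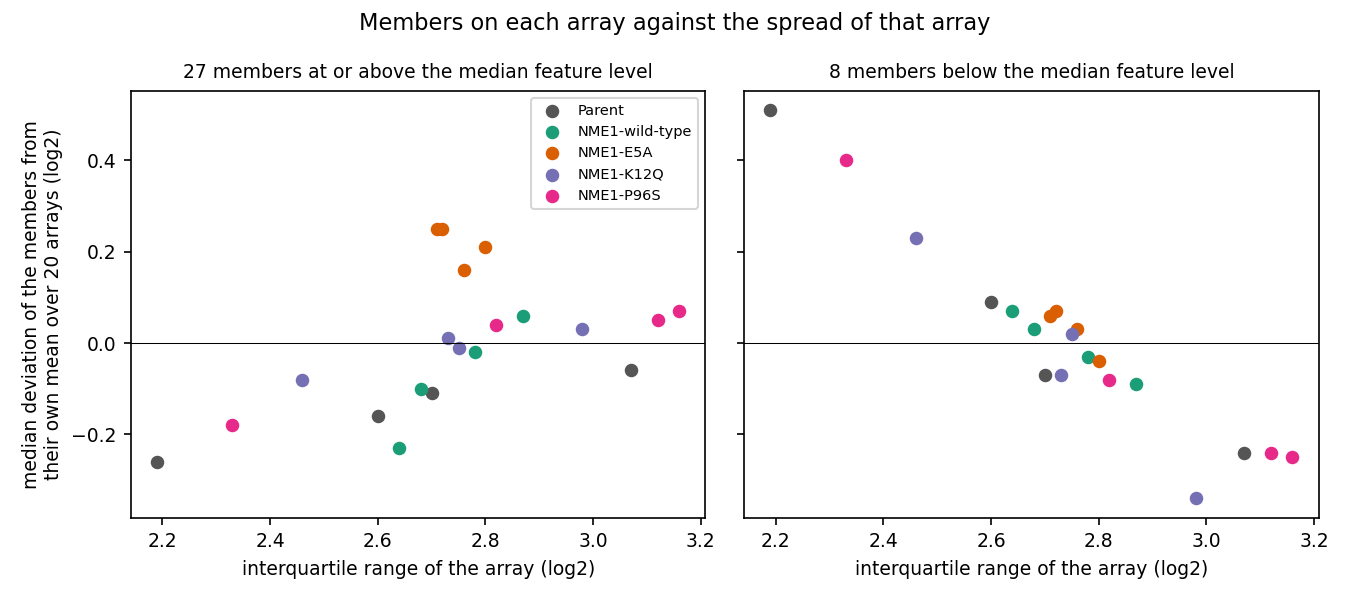
Median deviation of the members from their own mean over the 20 arrays (y axis) against the interquartile range of the array (x axis), for the 27 members at or above the median feature level and the 8 below it. The 8 lower members lie lower where the range is wider, and the 4 NME1-E5A arrays lie above all others in the left panel at middling ranges.

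The neighbouring routes of glucose and pyruvate were read from 8 lists with 97 genes, of which 84 had a row of their own. In NME1-E5A against Parent, 1 of the 84 changed, 30 had positive differences and 3 had an unadjusted p under 0.05, beside 26 positive and 22 of the 35 glycolysis genes. Over all features 0.218% changed and 2.98% had an unadjusted p under 0.05, so the 3 of 84 are near the background. The changed gene was GYS1, the muscle-type glycogen synthase, which rose from 7.77 ± 0.022 to 8.42 ± 0.142 (SD, n = 4), by 0.64 (limma adjusted p = 0.0274). This call ended without any single Parent array, without NME1-E5A replicate 2, 3 or 4, with quantile normalisation (0.62, limma adjusted p = 0.0563), with centring (0.68, limma adjusted p = 0.0524), with only the 8 arrays (limma adjusted p = 0.205) and under limma's treat (adjusted p = 1.0). Glycogen metabolism thus had 1 of 15 genes higher and 0 lower, with UGP2, which makes the glucose donor of glycogen, at 0.48 and PYGB, a glycogen phosphorylase, at 0.06. In the other 7 lists 0 genes changed in any of the 10 comparisons (limma, with 0 at an unadjusted p under 0.05 in NME1-E5A against Parent).

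Values in NME1-E5A for the members with the highest means were small in those 7 lists. Among 8 other glucose transporters SLC2A6 differed by -0.26 and SLC2A10 by 0.03, and among 10 further glycolytic genes BSG, the chaperone of lactate transporters, by 0.17 and PGM2 by 0.19. In the pyruvate dehydrogenase complex with its phosphatases and the pyruvate carrier, 8 genes measured, PDP1, a phosphatase that reactivates the complex, differed by 0.19 and DLD, its shared dehydrogenase subunit, by -0.08. Among 7 gluconeogenic genes G6PC3 differed by 0.22 and SLC37A4 by -0.02, and among 7 pentose phosphate genes TKT, a transketolase, differed by 0.05 and PGD by less than 0.01. Among 14 genes of the tricarboxylic acid cycle MDH2, the mitochondrial malate dehydrogenase, differed by -0.03 and OGDH by -0.16, at a list median of -0.02. Of 15 genes for oxygen sensing and transcription factors of glycolysis, HIF1A, the oxygen-regulated HIF subunit, differed by 0.09 and TXNIP, a brake on glucose uptake, by 0.04, at a list median of 0.01. HIF activity is set largely by protein stability, which these arrays do not measure, and whether HIF had a part in these differences was not tested.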

How the data were processed

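The log2 expression values were normalised with RMA in R by the authors, per the labels and the design text, and limma is also named in the submitters' processing notes. Software versions, genome build and annotation release are not given in the sources used here. Of 18708 rows, 14735 had a single gene symbol, 2873 several and 1100 none listed in the platform annotation; symbols were checked through a RefSeq list (GRCh38.p14) and 0 needed updating. For genes with several rows of a single symbol, the row with the highest mean was kept. Rows with several symbols or none all stayed, among them lower-mean shared rows of some members. This left 18384 features, of which 14411 had a single symbol. A limma 3.58.1 model (R 4.3.3; lmFit, eBayes, 15 residual degrees of freedom) with a mean per line was fitted over all 20 arrays, and each of the 10 line pairs was tested two-sided. "Changed", "rose" and "fell" mean an adjusted p under 0.05 (Benjamini-Hochberg over all features) and at least 1.5-fold. All differences are on the log2 scale. The fit was tested on simulated data with independent noise, for NME1-E5A against Parent. There the rule recovered 16 of 50 true 1.5-fold changes, 38 of 50 true 2-fold changes and 47 of 50 true 3-fold changes. A gene that did not pass is therefore not shown to be unchanged. The number of arrays limits the precision.

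The members and lists were chosen with earlier results of these data known. Every member is named; of the wider lists, changed genes and the 2 members of highest mean that did not change. Alternatives tried were quantile normalisation, median centring, fits to 8 arrays, a replicate block, array spread as a covariate, removal of arrays, a filter on low means, lowest-mean rows, array weights, no fold minimum and treat. Settings for the count of genes with arrays wholly above Parent were chosen after seeing the data.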

Additional observations from a re-analysis of the deposited data

Results flagged for a closer look

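Of 175 groups of 4 arrays, one for each of the 35 genes in each line, 7 held an array far from the other 3 by Dixon's criterion, which chance alone meets in about 1 group in 20. On NME1-E5A replicate 3, HK3 read 5.17 where the nearest array read 5.27, PFKFB1 read 3.55 (nearest 3.83) and PDK4 read 4.19 (nearest 4.58). TPI1 read 10.53 on Parent replicate 3 (nearest 10.69) and ENO1 read 12.73 on NME1-wild-type replicate 2 (nearest 13.02). On NME1-K12Q, PFKM read 8.14 on replicate 2 (nearest 8.28) and the row of PGAM1 read 11.46 on replicate 1 (nearest 11.16). In the fit with equal array weights, none of these genes passed in any comparison.

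The difference between 2 NME1 lines passed in 8 tests (limma, adjusted p under 0.05 and 1.5-fold). Against NME1-wild-type, NME1-E5A was higher in the row of SLC2A3 by 0.85, in PFKFB4 by 0.88 and in ENO2 by 1.07. ALDOC differed by -1.05 in NME1-K12Q against NME1-wild-type, by -1.67 against NME1-E5A and by 1.23 in NME1-P96S against NME1-K12Q. ENO2 differed from NME1-E5A by -0.88 in NME1-K12Q and by -1.03 in NME1-P96S. Each construct is 1 line, so the construct and the line cannot be told apart.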

How the results depend on the processing

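With 4 technical replicate arrays per line, the precision rests on the spread between arrays, and dim members near the bottom of the scale, such as LDHC and PFKFB1, limit what can be seen. The 14 calls on single genes kept their sign under every alternative run. Fitting only the 8 arrays compared gave 0 changed genes against Parent in NME1-wild-type, 2 in NME1-E5A and 0 in NME1-P96S. Limma's treat against 1.5-fold gave 0, 2 and 0 in the same lines, 0 in NME1-E5A against NME1-wild-type, 0 in NME1-K12Q against NME1-wild-type, 1 in NME1-K12Q against NME1-E5A, 0 in NME1-P96S against NME1-E5A and 0 in NME1-P96S against NME1-K12Q. Array weights gave 3 in NME1-P96S against Parent, 5 in NME1-E5A against NME1-wild-type, 5 in NME1-K12Q against NME1-E5A and 3 in NME1-P96S against NME1-E5A. With array spread as a covariate the last 3 counts were 5, 4 and 4, and without the 3 narrowest arrays the first and last of them were 5 and 2. Array weights also added HK3 (-0.61) and PKLR (-0.65) in NME1-P96S and HK2 (0.62) and the row of SLC2A3 (0.65) in NME1-E5A against Parent, which then had 6 changed genes. Without a fold minimum NME1-P96S against NME1-E5A gave 2. Median differences from Parent were -0.0 in NME1-wild-type and 0.223 in NME1-E5A with quantile normalisation, 0.243 in NME1-E5A without the narrowest arrays, 0.131 in NME1-K12Q over features of higher mean, and 0.13 in NME1-K12Q and 0.156 in NME1-P96S with array weights. Genes wholly above Parent, counted under settings chosen after seeing the data, numbered 1 in NME1-wild-type (0.479% of features) and 2 in NME1-K12Q (0.653%) with quantile normalisation, 3 in NME1-K12Q (0.702%) and 1 in NME1-P96S (0.555%) with centring, and 8 in NME1-P96S (4.42%) without the narrowest arrays. Leaving out 1 array at a time gave 0 to 1 changed genes in NME1-wild-type against Parent, 2 to 5 in NME1-E5A against NME1-wild-type and 1 to 2 in NME1-P96S against NME1-E5A. It gave medians from 0.021 to 0.096 in NME1-wild-type, 0.243 to 0.324 in NME1-E5A and 0.069 to 0.14 in NME1-P96S, and 5 to 10 genes wholly above Parent in NME1-K12Q (0.636% to 1.83% of all features) and 3 to 7 in NME1-P96S (0.609% to 3.57%). Correlations of the deviations of same-numbered arrays ran from -0.849 to 0.81, with a median of 0.235, and were above 0.1 in 25 of 40 pairs. Arrays of other numbers had a median of -0.054. Of 20 arrays, 11 had their highest mean correlation with their own number, so deviations were partly shared by number. The main fit and the isozyme tests did not use the number, and whether it marks a batch was not tested. With the replicate block, NME1-P96S against NME1-E5A gave 2 changed genes. The counts against Parent were 1, 4, 0 and 1, as without it. The cause of these shifts was not tested.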
